A study of Homo sapiens with 13 samples.

Results

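MCF10A cells that had been without serum were compared 120, 240 and 480 min (2, 4 and 8 h) after stimulation with epidermal growth factor (EGF) or with a serum mixture. MCF10A is an immortalized, non-tumorigenic line of human mammary epithelial cells that depends on EGF for growth. The arrays were chosen by their labelled stimulus and time: 3 EGF arrays and 3 serum arrays, paired by time, of 13 arrays in the series. All cells had been grown with EGF (10 ng/ml in the labels) and with a supplement that the labels name serum: heat-inactivated horse serum at 5% together with cholera toxin, hydrocortisone and insulin. They were then deprived for 24 h and given either EGF or that supplement, called serum here. The remaining arrays were 1 of unstimulated cells and 1 per stimulus at 20, 40 and 60 min. No time had a replicate array, and nothing in the labels says that the times came from separate cultures. A p-value here reflects only how these arrays scatter, which may be technical.

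EGF binds the receptor EGFR, a tyrosine kinase that drives the RAS-ERK cascade, and ERK in turn switches on phosphatases and adaptor proteins that restrain it. Hydrocortisone acts through the glucocorticoid receptor, a transcription factor with a well-known set of direct target genes. Cholera toxin keeps the stimulatory G protein active and so raises cyclic AMP, which acts on genes through protein kinase A and the factor CREB. The comparison of EGF with serum is therefore a comparison of 1 receptor ligand with horse serum, cholera toxin, hydrocortisone and insulin together. The agents within the mixture cannot be told apart.

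Levels below are log2 of the MAS5 signal plus 6, after quantile normalization. A signal of 150, about the mean to which the authors had scaled each array, is a level of 7.29. A difference is EGF minus serum on that scale, averaged over the 3 time pairs (n = 3), with its standard error (SE). A gene passed when its p-value, adjusted over 7731 genes with limma by Benjamini and Hochberg, was under 0.05. Precision is limited by the small number of arrays.

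Of 7731 genes, 58 (0.75%) passed: 19 (0.246%) were higher and 39 (0.504%) lower after EGF. The genes lower after EGF, which were higher after serum, included glucocorticoid and cyclic AMP targets (RGS2, ANGPTL4, ZBTB16, DUSP1), the growth inhibitors CDKN1C, KLF4 and GADD45B, the ID factors ID1 and ID3 and the junction genes OCLN and DSG3. The genes higher after EGF included the EGFR ligand HBEGF, the ERK inhibitors DUSP4 and SPRED2, the cytokines CXCL8 and IL1B, VEGFA, and the stress genes GDF15, TRIB3 and SLC7A11. The differences that passed ran from 0.67 to 2.30 among the higher genes and from -3.12 to -0.63 among the lower ones. At an unadjusted p under 0.05 there were 1462 genes, 729 higher (9.43%) and 733 lower (9.48%). The median difference of all genes was 0.01.

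The count rested on the 3 pairs together. It was 16 without the pair of 120 min, 0 without that of 240 min and 2 without that of 480 min, when 1134, 1341 and 1039 genes had an unadjusted p under 0.05. All 58 genes had the same sign in all 3 late pairs, so leaving out a pair could not change their direction. Settings that altered only the filter, the variances, the time block or the first-hour arrays left the difference itself unchanged. The genes kept their direction in the remaining settings that gave a value for them, and 8 had no value in 1 or more settings.

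**Figure D1:**
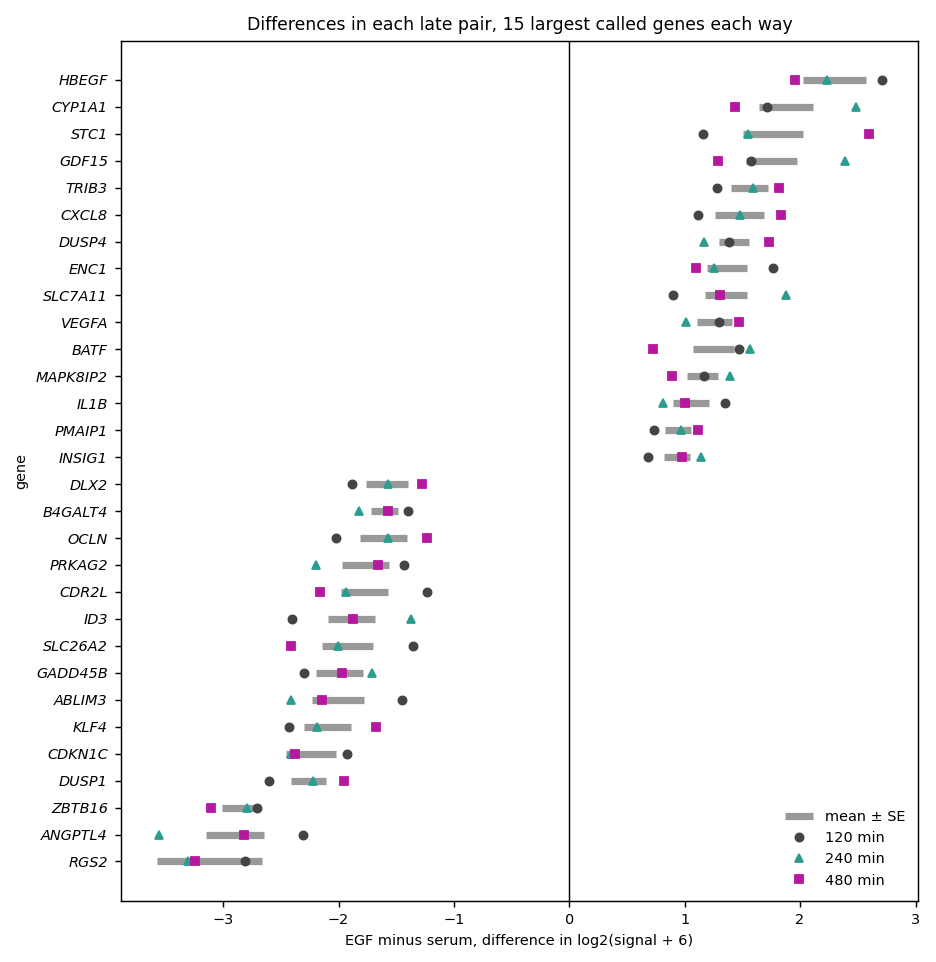
Difference in level between EGF and serum (log2 scale, x axis) in each late pair, for the 15 genes with the largest called differences each way (y axis). Symbols are the pairs of 120, 240 and 480 min. Grey bars are the mean of the 3 pairs ± the SE of the model, whose spread also draws on the first-hour arrays. In each gene all 3 symbols lie on the same side of 0, from RGS2 at a mean of -3.12 to HBEGF at 2.30.

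The 3 largest differences were in genes known as targets of glucocorticoids or cyclic AMP. RGS2, which shortens signalling by G protein-coupled receptors, was at levels of 5.90, 5.94 and 5.71 after EGF (120, 240 and 480 min) and of 8.71, 9.24 and 8.95 after serum. The groups did not overlap, and the unstimulated level of 6.87 lay between them. The difference was -3.12 (SE 0.46, 8.68-fold, adjusted p = 0.0445). ANGPTL4, a secreted inhibitor of lipoprotein lipase, was at 8.27, 7.69 and 7.93 after EGF and at 10.58, 11.24 and 10.76 after serum. Here the EGF arrays lay near the unstimulated level of 8.26 and the serum arrays well above it (-2.90, SE 0.25, 7.44-fold, adjusted p = 0.0139).

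ZBTB16, which encodes the zinc-finger repressor PLZF, had the smallest adjusted p of the 58 genes. Its level was 4.86, 4.46 and 3.79 after EGF and 7.56, 7.25 and 6.89 after serum, against 7.33 in unstimulated cells. It was the serum arrays that stayed near the unstimulated level and the EGF arrays that lay far below it, lowest at 480 min. The difference was -2.87 (SE 0.15, 7.30-fold, adjusted p = 0.0024). The EGF levels of 240 and 480 min lay under the filter level of 4.68, and the size depends on the offset: it was -3.35 with no offset and -2.11 with an offset of 24. Of the 58 genes 7 had a late array under that level.

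DUSP1, the phosphatase MKP-1 that switches off MAP kinases, was at 9.15, 9.26 and 9.10 after EGF and at 11.75, 11.48 and 11.05 after serum. Its unstimulated level of 10.20 lay between the groups, which did not overlap. The difference was -2.26 (SE 0.15, 4.79-fold, adjusted p = 0.00688). DUSP1 was the only one of the 33 lower genes with a promoter sequence in the RefSeq table that held the palindromic CREB motif TGACGTCA in the 250 bases before its start. It is shown with the motif in capitals, on the minus strand at chr5:172771278-172771355 (GRCh38.p14), where the motif lies 125 to 118 bases before the transcription start:
DUSP1: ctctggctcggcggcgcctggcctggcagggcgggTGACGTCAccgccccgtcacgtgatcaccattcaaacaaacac
The motif, which reads the same on both strands, was in 3.03% of the promoters of lower genes, 3.17% of those of all genes tested (205 of 6457) and 1.77% of the whole table (482 of 27305), and in 0 of the 14 promoters of higher genes. The glucocorticoid receptor motif, searched on both strands as GNACA and TGTNC with 3 bases between them, was in 0 of the 33, in 0 of 17 promoters of the glucocorticoid targets tested and in 0.17% of all genes tested. These windows are short, and a match is only a match of letters.

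This list, like the others below, was chosen with earlier results of these data known, so its counts are not an independent test. A list of known glucocorticoid targets held 21 tested genes, of which 8 passed as lower and 0 as higher, against 0.504% and 0.246% of all genes. Of the 21, 18 were lower after EGF in all 3 pairs (19.8% of all genes were) and 1 was higher in all 3. The list's median difference was -0.97. Besides the genes above these were CDKN1C, GADD45B, TSC22D3 and GLUL. TSC22D3, the leucine-zipper protein GILZ, was at 6.20, 5.88 and 5.76 after EGF and at 7.69, 7.17 and 7.31 after serum (-1.44, SE 0.20, adjusted p = 0.0372). As for ZBTB16, the serum arrays were close to the unstimulated level (7.53) and the EGF arrays below it. GLUL, glutamine synthetase, differed by -1.06 (SE 0.13, adjusted p = 0.0233).

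Several of the best-known members of the list missed the threshold and are given as values: the receptor chaperone FKBP5 was at -0.97, the kinase SGK1 at -0.90 and the repressor KLF9 at -1.15. CEBPD, a C/EBP factor, was the member on the other side (0.40). The metallothioneins, which bind metals and are also glucocorticoid targets, showed smaller values. Of 6 tested, 0 passed, and 3 were lower in all 3 pairs (19.8% of all genes). The median was -0.23, with MT1G at -0.71 and MT2A at -0.04.

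The list of cyclic AMP and CREB targets was mixed. Of 13 tested genes 3 passed as lower (RGS2, KLF4 and DUSP1, against 0.504% of all genes) and 1 as higher (0.246%). Their median was -0.10. It ran from -1.09 to 0.10 over 13 alternative settings and was positive only without the pair of 120 min. RGS2 and DUSP1 stand in both this and the glucocorticoid list. SIK1, a kinase induced by cyclic AMP, was at -1.45 and the phosphodiesterase PDE4D at -0.72, both short of the threshold, while the classical CREB targets CREM (0.01), NR4A1 (-0.14) and FOSB (0.07) were near 0. The member that was higher after EGF was STC1, a secreted hormone-like glycoprotein. Its level was 7.77, 7.90 and 8.94 after EGF and 6.61, 6.36 and 6.35 after serum (1.76, SE 0.26, adjusted p = 0.0444).

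**Figure D2:**
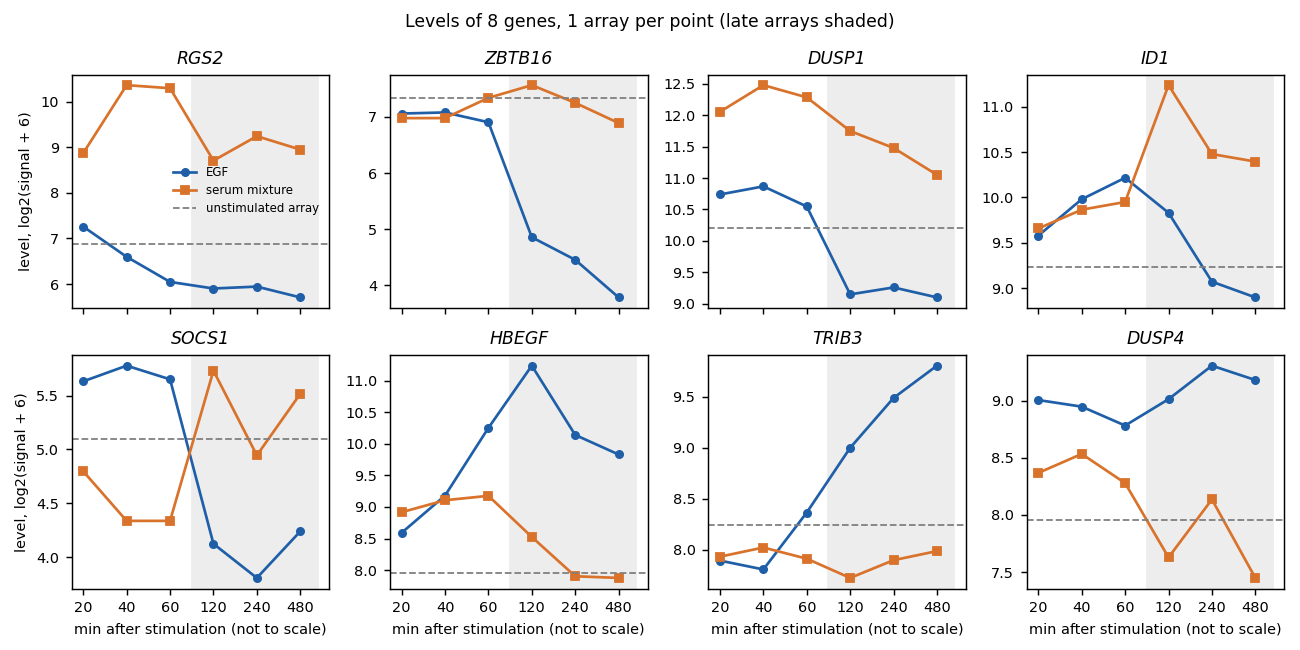
Levels (log2 of signal plus 6, y axis) of 8 genes at the 6 times of stimulation (x axis, not to scale), 1 array per point, with the unstimulated array as a dashed line and the late times shaded. RGS2 and DUSP1 were apart from 20 min on, whereas the curves of ZBTB16, ID1, HBEGF and TRIB3 lay close together at 20 and 40 min.

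CDKN1C, the cyclin-dependent kinase inhibitor p57, was at 5.32, 4.91 and 4.78 after EGF and at 7.25, 7.32 and 7.15 after serum. The EGF arrays lay around the unstimulated level of 4.90, and all serum arrays lay above it (-2.24, SE 0.22, 4.72-fold, adjusted p = 0.0198). It was 1 of 19 tested G1 cyclins and inhibitors, and the only one to pass: CDKN1A (p21) was at 0.34, CDKN1B (p27) at -0.18 and cyclin D1 (CCND1) at -0.19. GADD45B, a stress sensor that binds upstream kinases of p38 and JNK, was at 6.71, 6.66 and 5.54 after EGF and at 9.01, 8.37 and 7.51 after serum (-1.99, SE 0.21, adjusted p = 0.0202). Its relative GADD45A was at -1.26 and missed the threshold (adjusted p = 0.0663).

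KLF4, a Kruppel-like factor linked to epithelial differentiation and cell cycle exit, was at 6.84, 6.41 and 6.39 after EGF and at 9.26, 8.59 and 8.07 after serum. The difference was -2.10 (SE 0.21, 4.28-fold, adjusted p = 0.0198). KLF10, a TGF-beta-inducible member of the family, was lower as well (-0.94, SE 0.09, adjusted p = 0.0202). The values of 9 tested Kruppel-like factors ran from -2.10 to 0.25, with a median of -0.31. Of 17 FOXO and growth arrest genes 0 passed, and 10 were lower in all 3 pairs (19.8% of all genes) against 0 higher, with a median of -0.37. Among them the insulin receptor substrate IRS2 was at -0.83.

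The ID proteins, partners of basic helix-loop-helix factors that block differentiation, are classical targets of BMP signalling. ID1 was at 9.83, 9.07 and 8.90 after EGF and at 11.24, 10.48 and 10.40 after serum. The groups did not overlap, and of the EGF arrays only that of 120 min was above the unstimulated level of 9.23, as were all serum arrays (-1.44, SE 0.11, adjusted p = 0.00688). ID3 differed by -1.88 (SE 0.20, adjusted p = 0.0217). ID2 was at 4.70, 5.18 and 4.06 after EGF and at 7.08, 6.99 and 6.59 after serum, which is a larger mean difference (-2.25), but it missed the threshold (adjusted p = 0.0836). The spread behind that p-value included its first-hour differences of 0.28, -2.47 and -1.13 (20, 40 and 60 min). Of 21 tested BMP, ID and TGF-beta genes only ID1 and ID3 passed, both as lower (0.504% of all genes). The inhibitory SMAD7 was at 0.67 and BAMBI, a BMP pseudoreceptor, at -0.52.

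Of 19 tested epithelial junction genes, 2 passed as lower (0.504% of all genes) and 0 as higher, 13 were lower in all 3 pairs (19.8% of all genes) and 1 was higher (21.8%), and the median was -0.39. OCLN, the tight-junction protein occludin, was at 5.62, 6.38 and 5.86 after EGF and at 7.64, 7.95 and 7.09 after serum. Both groups lay above the unstimulated level of 5.45, the serum group further (-1.61, SE 0.20, 3.05-fold, adjusted p = 0.0268). DSG3, a desmosomal cadherin, was at 10.44, 9.89 and 9.69 against 11.15, 11.19 and 10.78 (-1.04, SE 0.16, adjusted p = 0.0491). Members that did not pass were the tight-junction protein CLDN1 at -0.86, E-cadherin (CDH1) at -0.74 and desmoplakin (DSP) at -0.56.

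Genes of the cornified envelope, the cross-linked shell of differentiating keratinocytes, gave 0 calls among 23 tested, with 10 lower in all 3 pairs (19.8% of all genes), 3 higher (21.8%) and a median of -0.20. The values were uneven: the cross-linking enzyme TGM1 was at -1.65 and the envelope proteins SPRR1B and KRT10 at -1.21 and -0.77, while the S100 genes S100A8 (-0.08) and S100A9 (-0.04) were near 0. Of 18 SRF, MRTF and YAP targets, which report on actin tension, 0 passed, 9 were lower in all 3 pairs and 2 higher, beside the same shares of all genes (median -0.19), with AMOTL2 at -0.59 (adjusted p = 0.0536).

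**Figure D3:**
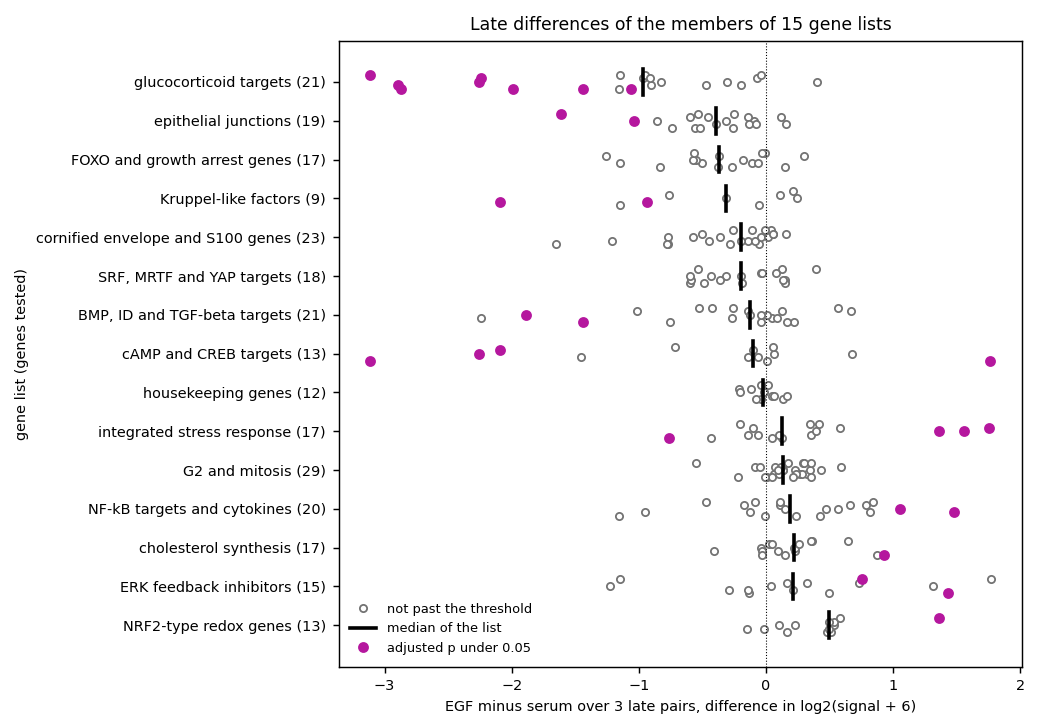
Difference between EGF and serum over the 3 late pairs (log2 scale, x axis) for every tested member of 15 gene lists (y axis, number tested in parentheses). Filled points passed the threshold, open points did not, and black bars are list medians, which ran from -0.97 for the glucocorticoid targets to 0.49 for the NRF2-type redox genes, with -0.03 for 12 housekeeping genes.

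Among the genes higher after EGF, HBEGF stood first. It encodes heparin-binding EGF-like growth factor, itself a ligand of EGFR. Its level was 11.24, 10.14 and 9.83 after EGF and 8.53, 7.90 and 7.88 after serum, against 7.95 in unstimulated cells. The EGF arrays were highest at 120 min, and the serum arrays of 240 and 480 min lay at the unstimulated level (2.30, SE 0.27, 4.93-fold, adjusted p = 0.0233). Of 7 tested ligands and receptors of the family only HBEGF passed. The ligands EREG and NRG1 were at 0.83 and 0.64, TGFA at 0.15 and the receptor EGFR at -0.07.

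The ERK feedback inhibitors were split. DUSP4, a nuclear phosphatase of ERK, was at 9.01, 9.31 and 9.18 after EGF and at 7.63, 8.14 and 7.45 after serum. The EGF arrays all lay above the unstimulated level of 7.96 (1.43, SE 0.13, 2.69-fold, adjusted p = 0.0164). A second probe set for DUSP4 gave 0.63, in the same direction. SPRED2, a membrane-bound inhibitor of RAF activation, was at 7.73, 7.73 and 7.75 against 6.996, 6.83 and 7.11 (0.76, SE 0.11, adjusted p = 0.0407). DUSP6, the cytoplasmic ERK phosphatase, was at 10.12, 9.74 and 9.70 after EGF and at 8.68, 8.25 and 8.68 after serum (1.32), and missed the threshold (adjusted p = 0.0877). So did IER3 (1.77, adjusted p = 0.0518), an early-response survival gene, and PHLDA1 (1.63, adjusted p = 0.0518), a pleckstrin-homology protein. Of 15 tested inhibitors 2 passed as higher (0.246% of all genes) and 0 as lower, 7 were higher in all 3 pairs (21.8% of all genes) and 2 lower (19.8%), and the median was 0.22. The members on the other side were CISH (-1.22), an inhibitor of cytokine receptors, and DUSP10 (-1.15), a phosphatase of p38 and JNK. DUSP1, the phosphatase with the largest difference, was not among these 15. It passed as lower, in the opposite direction from DUSP4.

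SOCS1, an inhibitor of JAK kinases, was at 4.12, 3.81 and 4.24 after EGF and at 5.73, 4.95 and 5.52 after serum (-1.34, SE 0.15, adjusted p = 0.022). These are dim signals, and the EGF levels lay under the level of 4.68 that the filter required of a gene's mean. Its other 3 probe sets were under that level on average and gave -0.21, 0.03 and -0.01, so none showed the difference. SOCS3 was at 0.22.

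Immediate early transcription factors are among the first genes switched on by growth factors. Of 16 tested, KLF10 was the only one to pass. FOS was at 7.04, 6.48 and 6.62 after EGF and at 7.23, 5.59 and 3.80 after serum: the stimuli were alike at 120 min and furthest apart at 480 min, and the mean difference of 1.18 did not pass (adjusted p = 0.397). EGR1 was at 0.50 and MYC at -0.03. The ETS factors ETV5 (1.13, adjusted p = 0.0683) and ETV6 (0.79, adjusted p = 0.0518) were just short of the threshold. Other probe sets of ETV5 past the filter gave only 0.13 and 0.26.

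Secreted inflammatory genes were unequal. CXCL8, the neutrophil chemokine interleukin-8, was at 11.49, 11.33 and 11.02 after EGF and at 10.38, 9.85 and 9.18 after serum (1.48, SE 0.21, 2.78-fold, adjusted p = 0.0439). Both groups lay above the unstimulated level of 9.15, the serum array of 480 min by the least. IL1B, interleukin-1 beta, was at 9.59, 9.004 and 8.29 after EGF and at 8.24, 8.19 and 7.29 after serum (1.05, SE 0.16, adjusted p = 0.0452). Its groups did not overlap, though the EGF array of 480 min was only just above the serum array of 120 min. Of 20 tested NF-kB targets and cytokines 2 passed as higher (0.246% of all genes) and 0 as lower, and 9 were higher (21.8%) and 3 lower (19.8%) in all 3 pairs. CCL20 (-1.15), a lymphocyte chemokine, and NFKBIA (-0.95), the inhibitor of NF-kB that is also a glucocorticoid target, were lower without passing. CXCL10, an interferon-inducible chemokine outside this list, was at -1.81 (adjusted p = 0.0916). VEGFA, the angiogenic growth factor, was at 10.53, 10.24 and 10.50 after EGF and at 9.24, 9.23 and 9.03 after serum, on either side of the unstimulated level of 9.76 (1.26, SE 0.15, adjusted p = 0.0246). Its other 3 probe sets gave 1.03, 0.90 and 1.18.

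VEGFA is also a hypoxia-inducible gene, and the list of such genes was divided. Of 13 tested, 1 passed as higher (0.246% of all genes) and 3 as lower (0.504%). The lower ones were ANGPTL4, DDIT4 (-0.76, SE 0.11, adjusted p = 0.0452), an inhibitor of mTORC1 that is also induced by glucocorticoids, and the collagen cross-linking enzyme LOX (-0.79, SE 0.12, adjusted p = 0.0459), of whose other probe sets one gave -0.63 and one 0.00.

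Some stress and redox genes were higher after EGF. TRIB3, a pseudokinase of the integrated stress response, was at 9.001, 9.49 and 9.81 after EGF and at 7.73, 7.90 and 7.99 after serum. All EGF arrays lay above the unstimulated level of 8.24 and all serum arrays below it (1.56, SE 0.16, 2.95-fold, adjusted p = 0.0202). GDF15, a stress-induced secreted member of the TGF-beta family, was at 8.56, 8.38 and 7.69 against 6.98, 5.99 and 6.40 (1.75, SE 0.22, adjusted p = 0.0271). SLC7A11, the cystine transporter that feeds glutathione synthesis, was at 9.87, 10.47 and 10.13 against 8.97, 8.60 and 8.83 (1.36, SE 0.18, adjusted p = 0.0341). These genes belong to the integrated stress response list, with a median of 0.13. In it 3 of 17 passed as higher (0.246% of all genes) and DDIT4 as lower (0.504%). The factors that drive it differed less, with ATF4 at 0.05 and DDIT3 (CHOP) at 0.36. Genes of the unfolded protein response, the arm that senses the endoplasmic reticulum, gave 0 calls among 15, and their differences ran from -0.30 to 0.37.

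The NRF2-type redox genes had the highest median of the 48 lists, 0.49. Of 13 tested, SLC7A11 passed, and 10 were higher after EGF in all 3 pairs (21.8% of all genes were) against 1 lower. The others were modest in size: the glutathione synthesis subunit GCLM and the thioredoxin reductase TXNRD1 were both at 0.53, the quinone reductase NQO1 at 0.48 and the ferritin light chain FTL at 0.59. PMAIP1, the BH3-only protein NOXA, was the only one of 11 BCL2 family genes to pass (0.94, SE 0.11, adjusted p = 0.0233).

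INSIG1, which holds the sterol-regulated factor SREBP in the endoplasmic reticulum and is itself its target, was at 10.26, 10.71 and 10.23 after EGF and at 9.57, 9.57 and 9.26 after serum (0.93, SE 0.12, adjusted p = 0.0246). It was the only one of 17 cholesterol synthesis genes to pass. HMGCS1 was at 0.87 and IDI1 at 0.64, and SREBF1, which encodes an SREBP, was at 1.14 (adjusted p = 0.113).

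CYP1A1, the aryl hydrocarbon receptor target that oxidizes aromatic compounds, was at 6.27, 5.53 and 4.47 after EGF and at 4.55, 3.05 and 3.03 after serum (1.88, SE 0.23, 3.68-fold, adjusted p = 0.0246). It was the 1 higher gene whose groups overlapped: the EGF array of 480 min lay under the serum array of 120 min. Its unstimulated level of 5.58 was above all serum arrays. The serum levels all lay under the filter level of 4.68, so the size is uncertain: the difference was 3.03 with no offset and 1.03 with an offset of 24. CYP1B1, another target of that receptor, was at 0.62. The remaining higher genes were the actin-binding protein ENC1 (1.37), the AP-1 partner BATF (1.25), the JNK scaffold MAPK8IP2 (1.15), TSC22D1 (0.92), PLEK2 (0.76) and the serpin SERPINB3 (0.67). The serum levels of MAPK8IP2 (4.64, 3.54 and 4.28) also lay under the filter level, and its difference ran from 0.68 to 1.57 over the settings. Another probe set of MAPK8IP2, under the filter level on average, gave 0.08.

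The other lower genes were of varied function. They included the sulfate transporter SLC26A2 (-1.92), the actin-binding protein ABLIM3 (-2.00), the AMP kinase subunit PRKAG2 (-1.76), the galactosyltransferases B4GALT4 (-1.60) and B4GALT5 (-0.65), the glycan-branching enzyme GCNT1 (-1.40), CDR2L (-1.77), PGBD5 (-1.55), the receptor tyrosine kinase ROS1 (-1.28) and the polarity protein DLG5 (-0.63). B4GALT4 was at 6.11, 6.39 and 6.29 after EGF, about its unstimulated level of 6.27, and at 7.52, 8.22 and 7.86 after serum (SE 0.12, adjusted p = 0.00688). SLC26A2 was at 10.09, 9.36 and 9.03 against 11.44, 11.36 and 11.44. Its serum levels were alike at the 3 times, and its EGF levels were lowest at 480 min. For 4 lower genes a probe set past the filter had the opposite sign or no difference: DLX2 (-1.58 against 0.73), PPP2R5D (-1.10 against 0.19), MCF2 (-1.29 against 0.04 and -0.42) and LOX, given above. Over all called genes, 31 of 35 other probe sets had the same sign.

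The lists of later cell cycle phases gave no calls. Of 29 tested G2 and mitosis genes 0 passed, 15 were higher after EGF in all 3 pairs (21.8% of all genes) and 1 lower (19.8%), and 9 were higher at an unadjusted p under 0.05 (9.43% of all genes). Their median was 0.14, and the spindle kinase AURKA had the largest value (0.59, adjusted p = 0.0836). Of 29 DNA replication and S phase genes 0 passed and 3 were higher at an unadjusted p under 0.05, with a median of 0.08. Glycolysis genes (0 of 19, median 0.08), ribosome biogenesis genes (0 of 20, median -0.12, or 0.01 without the pair of 480 min), interferon response genes (0 of 17, median -0.18) and integrins and laminin chains (0 of 19, median -0.18) gave no calls either. At an unadjusted p under 0.05 the glycolysis list had 2 higher and 0 lower genes, the ribosome biogenesis list 1 and 1, the interferon list 1 and 2, and the integrin and laminin list 0 and 6, where 9.43% and 9.48% of all genes were.

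The late arrays were also set against the unstimulated array. Of the 19 higher genes, 18 lay above it in all 3 EGF arrays (31.2% of all genes), 13 lay below it in all 3 serum arrays (28% of all genes) and 12 did both. Their median was 0.76 after EGF and -0.29 after serum. Of the 39 lower genes, 33 lay above it in all 3 serum arrays (30.6% of all genes), 20 below it in all 3 EGF arrays (27.8% of all genes) and 14 did both. Their median was 0.98 after serum and -0.30 after EGF. Both stimuli were set against the same single array, the genes were chosen for the difference between the stimuli, and no test was made.

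**Figure D4:**
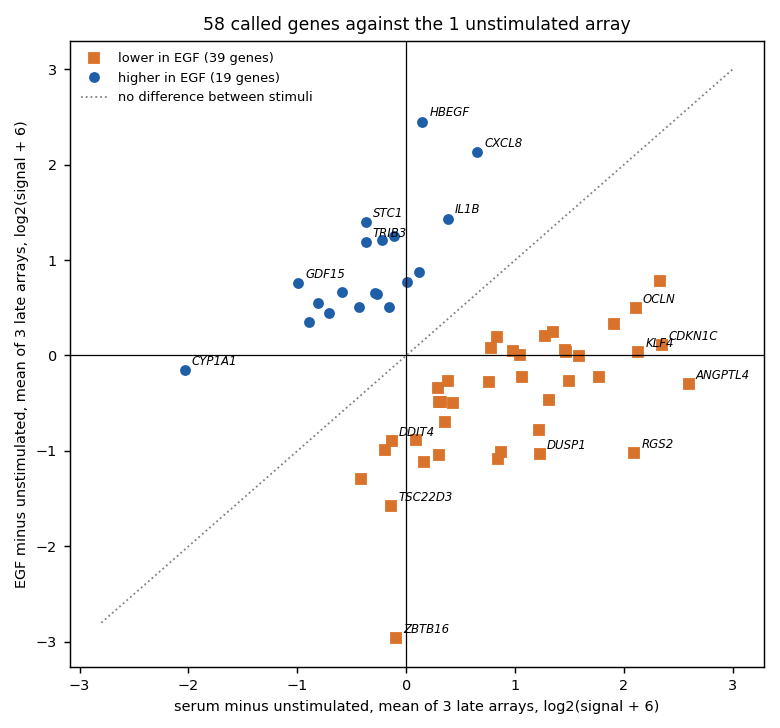
Mean level of the 3 late arrays minus the 1 unstimulated array (log2 scale) after serum (x axis) and after EGF (y axis) for the 58 genes that passed. Circles are the 19 genes higher after EGF, squares the 39 lower ones, and the dotted line marks equal levels. Most squares lie to the right of 0, and ZBTB16 lies near 0 after serum and far below it after EGF.

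Within the late times the pairs varied. At least 2-fold differences with EGF higher were seen in 155 genes (2%) at 120 min, 124 (1.6%) at 240 min and 191 (2.47%) at 480 min, and with EGF lower in 217 (2.81%), 130 (1.68%) and 168 (2.17%). With 1 array per stimulus and time these counts carry no error. The lists overlapped in part: 50 genes were lower at both 240 and 480 min, which is 38.5% of the first list and 29.8% of the second, and 28 were higher at both 120 and 240 min (18.1% and 22.6%). Across genes the pair differences correlated at r = 0.28 between 120 and 240 min, 0.30 between 120 and 480 min and 0.34 between 240 and 480 min, with Spearman's rho of 0.25, 0.31 and 0.31. These describe 7731 genes, which are not independent, in arrays normalized together. In all 3 pairs, 14 genes (0.181%) were at least 2-fold higher and 27 (0.349%) at least 2-fold lower.

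Many of the largest single-time values came from 1 dim array. DDAH2 was at 5.62, 5.10 and 5.44 after EGF and at 3.20, 5.41 and 5.18 after serum, so its 120 min difference rested on 1 serum array. USP5 was at 5.86, 3.27 and 6.04 against 4.90, 6.14 and 5.95, with 1 low EGF array at 240 min. SH3PXD2A and ECE1 were likewise low in the serum array of 480 min only (3.25 and 3.35). EDN1, the vasoactive peptide endothelin-1, was different: its level was 5.95, 5.78 and 5.78 after EGF and 8.59, 7.33 and 7.02 after serum, with the largest gap at 120 min (-1.81 over the 3 pairs, adjusted p = 0.0758). PLAUR, the urokinase receptor, was at 8.90, 8.57 and 8.49 against 10.67, 9.78 and 8.88, and its gap narrowed with time (-1.12). Urokinase itself (PLAU) lay the other way, at 11.16, 11.42 and 11.28 against 10.81, 10.32 and 9.82 (0.97), and its gap widened.

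The first-hour pairs are separate arrays and show how early the late differences were present. They also entered the spread used to call the late genes, which favours genes whose first-hour differences varied little. The shares below are therefore not independent of the calls. No gene passed in that comparison with limma (0 of 7731, with 1114 at an unadjusted p under 0.05). Of the 39 genes lower late, 22 were lower after EGF in all 3 first-hour pairs as well, where 21.3% of all genes were, and 5 were higher in all 3. Of the 19 higher genes 5 were higher in all 3 first-hour pairs, where 19.6% of all genes were, and 1, TSC22D1, was lower in all 3. The median first-hour difference was -0.24 for the lower and 0.05 for the higher genes, against -1.34 and 1.26 late.

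RGS2 was at -3.21 in the first hour (SE 0.46, adjusted p = 0.136 with limma), close to its late value. At 20, 40 and 60 min it was at 7.26, 6.60 and 6.05 after EGF and at 8.87, 10.36 and 10.30 after serum. KLF4 (-2.26, SE 0.21), DUSP1 (-1.56, SE 0.15), CDKN1C (-1.46, SE 0.22) and TSC22D3 (-1.13, SE 0.20) had the next values in the same direction, with adjusted p-values from limma of 0.0544, 0.0579, 0.137 and 0.153. HBEGF was at 8.59, 9.18 and 10.25 after EGF and at 8.92, 9.11 and 9.18 after serum, so that only the pair of 60 min was apart. ID1 was at 9.58, 9.98 and 10.22 against 9.66, 9.87 and 9.95, and was alike after both stimuli.

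Whether the late difference differed from that of the first hour was tested in the same model, and 2 of 7731 genes passed (0.0259%, with 860 at an unadjusted p under 0.05). ZBTB16 was at 7.06, 7.08 and 6.90 after EGF and at 6.98, 6.98 and 7.34 after serum in the first hour, a difference of -0.08, and at -2.87 late (change -2.78, SE 0.21, adjusted p = 0.029). SOCS1 was higher after EGF in the first hour, at 5.63, 5.78 and 5.65 against 4.80, 4.34 and 4.34 (1.20), and lower late (change -2.54, SE 0.22, adjusted p = 0.038). The next genes, ID1 (-1.54, adjusted p = 0.0561), B4GALT4 (-1.56, adjusted p = 0.0751) and TSC22D1 (1.52, adjusted p = 0.0936), did not pass. Without any 1 of the 3 late pairs the count was 0.

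**Figure D5:**
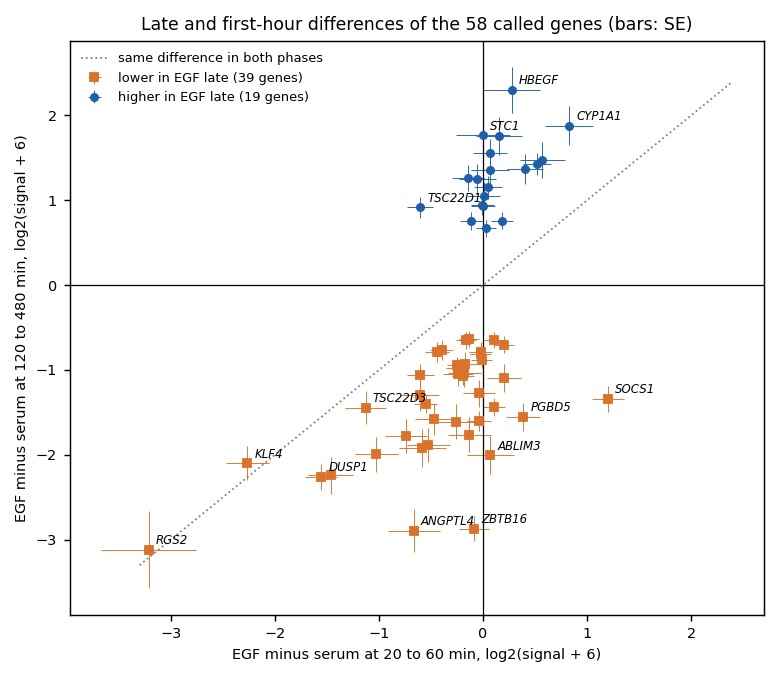
Difference between EGF and serum at 20 to 60 min (x axis) and at 120 to 480 min (y axis), log2 scale, for the 58 genes that passed late, with bars of 1 SE. The dotted line marks the same difference in both phases: RGS2 and KLF4 lie on it, ZBTB16 and ABLIM3 near 0 on the x axis, and SOCS1 in the lower right, with opposite signs.

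The labelled cell type was checked by its markers. All 11 basal markers on the array were above the filter level on all 6 late arrays. Their summed signal was 30755 to 32664 after EGF, 34304 to 36597 after serum and 35528 unstimulated. Of 17 luminal markers 9 were above it on all 6, with sums of 11737 to 12567 against 13880 to 16146, and KRT19, PGR, ELF5 and TFF3 were above it on none. For mesenchymal genes (9 of 17) the sums were 8865 to 9247 against 10070 to 10358. For markers of other cell types (4 of 21) the sums were 569 to 776 against 592 to 713, with PTPRC, CD3D, LYZ, VWF and ALB above the level on none, and CD14, DCN, MBP and COL1A1 above it on all 6. The basal, luminal and mesenchymal sums thus lay lower after EGF without overlap. The unstimulated sums were 12923 for the luminal and 9691 for the mesenchymal list. Such sums weigh the brightest genes most, so they do not describe a whole list. Mesenchymal FN1 was at 11.78, 11.84 and 11.69 after EGF and at 12.10, 12.16 and 12.23 after serum. Luminal CD24 was at 12.12, 11.95 and 11.66 against 12.29, 12.60 and 12.73. Single members went both ways: ITGA6, KRT18 and VIM were higher after EGF in all 3 pairs. Such genes numbered 1 basal, 1 luminal and 2 mesenchymal among those tested, against 5, 7 and 3 lower in all 3 pairs. The part of these sums in the junction and cornified-envelope differences was not tested. Fewer cells of a type and less RNA per cell cannot be told apart in such samples. The actin 3' to 5' signal ratio, a measure of RNA integrity, was 1.31 to 1.79 over the 13 arrays, with 1.44 for EGF and 1.78 for serum at 120 min.

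The number of genes past the threshold depended on the model. With the 6 late arrays alone it was 15 (2 higher, 13 lower), of which 12 were among the 58. Without the pairing by time it was 146 (66 and 80), and with a variance trend and robust variances 555 (260 and 295). With an offset of 24 in place of 6 it was 167 (73 and 94), with a filter at the 60th percentile 286 (135 and 151), and with no filter 1. ZBTB16 passed in all of these, and missed the threshold only without the pair of 240 min.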

How the data were processed

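RNA of 13 samples of MCF10A cells, 1 per stimulus and time, was measured on Affymetrix arrays of 22277 probe sets. The deposited values are intensities, 1 MAS5 signal per probe set and array on a linear scale, per the submitters' processing notes, with no version given in the sources used here. Scaling by the authors had made the arrays alike: the trimmed mean was 150.04 to 150.05. Detection calls were not used here. The title and description of the EGF array of 20 min give different times, and the title was used. In the model that array bears only on the spread and on the first-hour comparison, though it also took part in the normalization and the filter. Signals under 20 made up 33.3% of probe sets at 20 min of serum, and 36.8% to 40.0% elsewhere.

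Signals were converted to log2 of signal plus 6 and quantile normalized over the 13 arrays with limma 3.58.1 (R 4.3.3). Without the controls 22215 probe sets remained, of which 19064 had 1 symbol in the platform annotation, 1043 several and 2108 none. Each of 11963 genes was represented by its brightest probe set on average, and 7731 at or above the 40th percentile of probe set means (level 4.68) were tested. The model (lmFit, eBayes) was fitted to the 12 stimulated arrays with time as a block and stimulus within each phase (4 residual degrees of freedom). It treats the 3 late times as 3 pairs, so within the model the first-hour arrays entered the late comparison only through the spread. All 13 arrays took part in the normalization, the choice of probe set and the filter. Tests were two-sided, with a Benjamini-Hochberg threshold of 0.05. On data simulated from these 7731 genes with 200 changed, 66.2% of 2-fold and 94.8% of 4-fold late differences were recovered, with 4.19% and 5.39% false calls. For the difference between phases the recovery was 36% and 86.6%. These shares describe the simulated data only. They are not an error rate for the genes called in the real arrays, where no time was replicated. The number of genes called there changed with the pair left out, the filter and the variance model.

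The genes named were up to 15 called each way by size, up to 12 each way with the largest smallest pair, up to 4 called members of each of 48 gene lists or otherwise the 2 largest, the 4 largest each way at each time, those of the difference between phases, and FOS, EGR1, MYC, DUSP6 and HBEGF. Of the 58 called genes 37 fell under that rule. The other 21, and further list members given as values, were named after their values were seen. The lists and members were chosen with earlier results of these data known. Promoters (250 bases before to 50 after the start, RefSeq, GRCh38.p14) were matched by symbol for 6457 of the 7731 genes. Alternatives were other offsets, no quantile normalization, other filters, the mean of probe sets, a variance trend, no time block, the late arrays alone, a minimum fold, each pair left out and, chosen after seeing the data, leaving out the 20 min pair. Python 3.11.15 with numpy 2.4.6, pandas 2.3.3 and matplotlib 3.10.9 was used for figures.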

Additional observations from a re-analysis of the deposited data

Results flagged for a closer look

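For 2 genes the difference between EGF and serum at 120 to 480 min differed from that at 20 to 60 min by the test of that difference (limma, adjusted over 7731 genes). ZBTB16 moved by -2.78 (SE 0.21, adjusted p = 0.029): the stimuli were alike in the first hour, and EGF was lower in all 3 late pairs. SOCS1 moved by -2.54 (SE 0.22, adjusted p = 0.038): EGF was higher in all 3 first-hour pairs and lower in all 3 late pairs. SOCS1 had dim signals on the late EGF arrays, at levels of 3.81 to 4.24, and on the first-hour serum arrays, at 4.34 to 4.80. Its other 3 probe sets, all under the filter level, gave late differences of -0.21, 0.03 and -0.01. Groups of 3 arrays are too small for a check of single outlying arrays.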

How the results depend on the processing

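The 58 genes kept their sign under each alternative that gave a value for them, which was every one for 50 genes. Many of these alternatives could not change the sign, as each gene had the same sign in all 3 late pairs. The count of 58 was 44 with no offset, 62 with no quantile normalization, 41 with the mean of probe sets and 44 without both arrays of 20 min. It was 167 with an offset of 24, 1 with no filter, 286 with a filter at the 60th percentile, 555 with a variance trend and robust variances, 146 with no time block and 15 with the 6 late arrays only. Leaving out 1 late pair gave 0 to 16. The cause was not tested. The late arrays alone and the omissions had fewer arrays. With no filter 11963 genes, dim ones among them, entered both the fit and the adjustment. The count of 2 for the difference between phases was 0 with no offset, 8 with an offset of 24, 1 with no quantile normalization, 0 with no filter, 5 with the stricter filter, 1 with the mean of probe sets, 70 with the variance trend, 6 with no time block, 0 without both arrays of 20 min and 0 without any late pair.

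The 2-fold counts at a single time fell with the offset of 24 to 61 higher and 95 lower at 120 min, 42 and 69 at 240 min, and 75 and 87 at 480 min. With the filter at the 60th percentile they were 48 and 84, 33 and 55, and 58 and 72. The call of ZBTB16 was lost in 1 of 13 settings, without the pair of 240 min, and that of DUSP1 in 2. The medians of 29 of 48 lists kept their sign in every setting, and 19 changed it in at least 1, among them those of the cyclic AMP targets, the housekeeping genes (0.02 without the pair of 480 min) and the ribosome biogenesis genes. Dim genes near the filter level are the least precise.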

Other observations

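Probe sets that did not carry exactly 1 gene symbol were fitted in the same way, together with all others past the filter. Of 1584 such probe sets, 13 passed the threshold, in a fit in which 93 of 13329 probe sets passed. They are not named here.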
